A study of Mus musculus with 9 samples.

Results

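The mouse MHC class I presentation genes H2-K1, H2-D1, H2-T23, B2m, Tap1, Tap2, Tapbp, Psmb8, Psmb9 and Nlrc5 were taken by symbol from a table of 49671 genes. Each of the 10 symbols matched 1 row of the table, and all 10 passed the filter on low counts that left 18435 genes to test. The study sequenced RNA of skin cells from 4 Flg ko/ko and 5 Flg wt/wt samples, to ask how lack of filaggrin, a structural protein of the outer epidermis, changes keratinocyte gene expression. Cells were sorted as negative for CD45, the surface protein of leukocytes, and as positive for CD49f (integrin alpha-6), which basal keratinocytes carry. The labels give no strain, sex, age or treatment and do not describe the ko/ko allele. They do not give the H2 haplotype either, and whether it is the same in both genotypes was not tested, so counts of the polymorphic H2 genes are counts of reads placed on the mm10 alleles. Each title carries its own identifier, and the samples were taken as separate animals; if they were not, the p-values measure only the spread between these samples.

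Class I molecules show peptides from inside the cell to CD8+ T cells. A polymorphic heavy chain pairs with beta-2-microglobulin, the proteasome cuts proteins into peptides, the TAP transporter moves them into the endoplasmic reticulum, and tapasin holds an empty class I molecule there until a peptide binds. Interferon gamma and the transactivator NLRC5 raise transcription of most of these genes. NLRC5 acts through a promoter module of W/S, X1, X2 and Y boxes, in which X2 binds CREB and ATF proteins and Y binds NF-Y. Keratinocytes, fibroblasts, endothelial cells and leukocytes all carry class I molecules, so the genes mark no single skin cell type.

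The libraries held 15601859 to 23200440 counts, so 1 count equals 0.0431 to 0.0641 CPM (counts per 1000000 of the library total). Levels below are CPM on library sizes adjusted by TMM, a scaling that assumes that most genes do not differ. Flg had 2, 0, 0 and 4 counts in ko/ko replicates 1 to 4, against 0, 0, 6, 2 and 4 counts in wt/wt replicates 1 to 5, too few to check the genotype labels. The sorted cells did not read as pure keratinocytes, since the summed level of 6 fibroblast markers was 17753 to 33480 CPM in ko/ko and 13869 to 32777 CPM in wt/wt. That of 8 basal keratinocyte markers was 1697 to 2662 CPM in ko/ko and 1475 to 3106 CPM in wt/wt. In edgeR 7 of these 8 had a positive log2 fold change of ko/ko over wt/wt and 1 a negative one, and 0 were called. Itga6, which encodes CD49f, averaged 83.0 ± 14.6 CPM in ko/ko and 53.4 ± 9.04 CPM in wt/wt (SD, n = 4 and 5). Its log2 fold change was 0.64 (adjusted p = 0.157 in edgeR, 0.0344 in DESeq2 and 0.0187 in limma voom). Library identifiers in the labels form a separate run for each genotype; the labels do not say what the numbers stand for, and a batch that followed them and genotype cannot be told apart. In bulk RNA, a change in the number of cells of a type and a change in RNA per cell cannot be told apart either.

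The promoter sequences are shown because the members share the regulatory elements named above to different degrees. Windows of 300 bases, 250 before and 50 after the RefSeq start, were found for 8 of the 10 members on GRCm38.p6, the same build as mm10. None was found for Tap2 and Nlrc5. Each of the following is printed 5′ to 3′ on the strand of its gene, with matches to the searched motifs in capitals, on either strand. H2-K1 is shown from chr17:34000298-34000597 (minus strand), H2-D1 from chr17:35262844-35263143 (plus), B2m from chr2:122147437-122147736 (plus), Tap1 from chr17:34187306-34187605 (plus) and Psmb8 from chr17:34197945-34198244 (plus).
H2-K1: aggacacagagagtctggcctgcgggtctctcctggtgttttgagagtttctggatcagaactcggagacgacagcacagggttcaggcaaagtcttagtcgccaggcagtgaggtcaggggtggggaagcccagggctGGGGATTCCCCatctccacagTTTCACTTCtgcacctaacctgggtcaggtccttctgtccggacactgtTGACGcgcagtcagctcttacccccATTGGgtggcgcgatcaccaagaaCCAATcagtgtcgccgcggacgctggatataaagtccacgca
H2-D1: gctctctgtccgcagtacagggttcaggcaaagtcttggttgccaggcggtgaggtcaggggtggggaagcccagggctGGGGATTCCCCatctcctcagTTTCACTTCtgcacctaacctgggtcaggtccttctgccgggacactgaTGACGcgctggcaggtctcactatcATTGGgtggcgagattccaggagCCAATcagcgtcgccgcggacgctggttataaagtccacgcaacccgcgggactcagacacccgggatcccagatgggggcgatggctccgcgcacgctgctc
B2m: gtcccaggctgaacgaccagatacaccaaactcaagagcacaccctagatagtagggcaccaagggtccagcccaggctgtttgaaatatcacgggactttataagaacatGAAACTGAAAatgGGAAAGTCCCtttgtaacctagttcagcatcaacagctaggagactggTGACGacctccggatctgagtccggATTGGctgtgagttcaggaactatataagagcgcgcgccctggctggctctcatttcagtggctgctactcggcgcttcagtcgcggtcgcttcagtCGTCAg
Tap1: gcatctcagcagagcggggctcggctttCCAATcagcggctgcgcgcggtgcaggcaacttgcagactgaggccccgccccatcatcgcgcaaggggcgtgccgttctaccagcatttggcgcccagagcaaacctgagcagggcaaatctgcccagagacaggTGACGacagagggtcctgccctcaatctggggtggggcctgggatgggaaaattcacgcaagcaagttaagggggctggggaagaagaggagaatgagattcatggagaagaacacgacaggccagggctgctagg
Psmb8: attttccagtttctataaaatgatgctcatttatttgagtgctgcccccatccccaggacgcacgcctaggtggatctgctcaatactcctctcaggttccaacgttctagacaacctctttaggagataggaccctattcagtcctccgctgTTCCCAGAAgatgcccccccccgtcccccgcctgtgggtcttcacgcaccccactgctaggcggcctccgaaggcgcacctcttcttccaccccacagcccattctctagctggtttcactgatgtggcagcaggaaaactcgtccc

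Motifs were searched on both strands as fixed letters. The X2 core TGACG was found in 5 of 8 member windows and in 20.9% of 32544 promoter windows, and the Y box CCAAT in 7 of 8 and in 37.4%. H2-K1, H2-D1 and B2m carried the X2 core and an inverted Y box (ATTGG) in the same orientation with 20 bases between them. This arrangement was found in 31 of all windows (0.0953%). The spacing was read from these sequences, and no member window held the pair at another gap between 10 and 30 bases. Counted from the RefSeq start site as 1, the pair ran from -41 to -12 in H2-K1, from -101 to -72 in H2-D1 and from -78 to -49 in B2m. These distances depend on the annotated start. The CCAAT downstream of the pair lay after the start in H2-K1, at 9 to 13, but before it in H2-D1, at -53 to -49. The start sites were not checked, so a difference in distance between genes is not read as a difference between promoters.

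The same 3 windows each held a match to the NF-kB consensus, which was in 8.49% of windows. An interferon response element GAAANNGAAA lay in H2-T23 and B2m and in 3.45% of windows, and its shorter form GAANNGAAA lay in H2-K1 and H2-D1 and in 7.57%. The long form ran from -139 to -130 in B2m, and the short form from -90 to -82 in H2-K1. In H2-K1 and H2-D1 the NF-kB match lay upstream of the interferon element, while in B2m it lay downstream. The Psmb8 window held none of these and instead a GAS element, TTCNNNGAA, from -97 to -89. This motif was in 8.33% of windows. A RefSeq start can lie inside the counted row. For Psmb8 it was 34198195, where the row begins at 34197721, and for Tapbp 33919478, where the row begins at 33915899. For H2-D1 it was 35263094, where the row begins at 35262730, so the whole H2-D1 window lies inside the row. On the minus strand it was 34187330 for Psmb9 and 36032701 for H2-T23, where the rows end at 34187764 and 36032855. Sequence before other starts was not searched. Tap1 and Psmb9 are transcribed away from each other from RefSeq starts 226 bases apart, and their windows share 275 bases, so the X2 core and the Y box in the Tap1 window are also those counted for Psmb9. A match describes letters only, and binding was not measured.

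**Figure D1:**
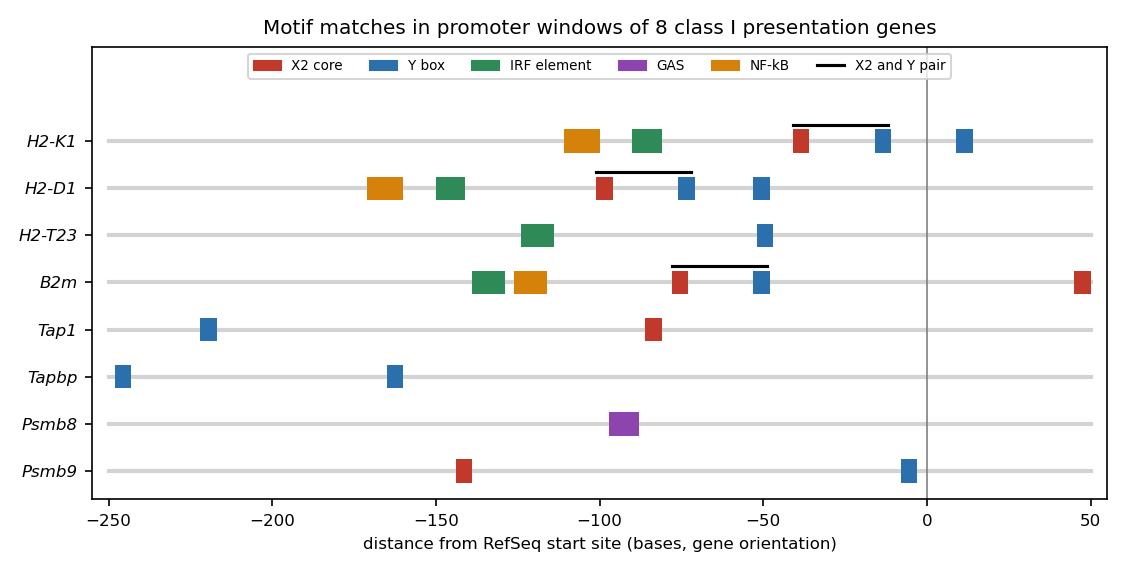
Motif matches in the promoter windows of 8 members, with distance from the RefSeq start site in bases on the x axis and 1 row per gene; coloured blocks are matches on either strand and black bars mark the X2 and Y pair. The pair appears in the H2-K1, H2-D1 and B2m rows, and Psmb8 has a GAS match and none of the others.

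The 10 genes spanned a wide range of levels, and their order was nearly the same in every library. Per kilobase of exon length, the median over the 9 libraries was 968 CPM for B2m, 301 CPM for H2-D1, 177 CPM for H2-K1, 74.6 CPM for Tapbp and 40.0 CPM for H2-T23. It was 10.3 CPM for Tap2, 6.13 CPM for Tap1, 4.64 CPM for Psmb8, 1.86 CPM for Psmb9 and 0.171 CPM for Nlrc5, on the same per-kilobase scale. The order held in each library with 1 exception: Psmb8 lay above Tap1 in 1 of 9 libraries. On this scale Tap1 averaged 5.72 ± 1.00 CPM in ko/ko and 6.65 ± 1.48 CPM in wt/wt, and Psmb8 averaged 5.52 ± 1.12 CPM in ko/ko and 3.57 ± 0.795 CPM in wt/wt (SD, n = 4 and 5), so these neighbours lay within their spread in ko/ko. By CPM, H2-D1 lay at the 99.3 percentile of all tested genes and B2m at the 99.2 percentile, while Psmb8 lay at the 50.6, Psmb9 at the 41.6 and Nlrc5 at the 20.7 percentile. The heavy chains and light chain were thus among the abundant transcripts of these cells, and the interferon-inducible proteasome subunits were near the middle.

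None of the 10 members passed an adjusted p of 0.05 between genotypes in edgeR's quasi-likelihood test, beside 0.00542% of all tested genes. DESeq2 and limma voom with sample quality weights also called 0 of 10, beside 3.07% of genes in DESeq2 (2.28% higher and 0.784% lower in ko/ko) and 9.77% in voom (6.6% higher and 3.17% lower). At an unadjusted p under 0.05, edgeR and DESeq2 each had 1 member, Psmb8, and voom had 3, Psmb8, H2-K1 and Nlrc5. The unadjusted share over all genes was 15.3% in edgeR (8.86% higher and 6.42% lower in ko/ko), 9.82% in DESeq2 and 29.1% in voom. The CPM of the genotypes overlapped for all 10 members, while they did not overlap for 6.25% of tested genes (3.51% with ko/ko higher and 2.74% with ko/ko lower). In edgeR 6 members had a positive and 4 a negative log2 fold change of ko/ko over wt/wt, with a median of 0.13, beside a median of -0.03 and 47.4% positive values over all genes. These changes are values, not calls.

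**Figure D2:**
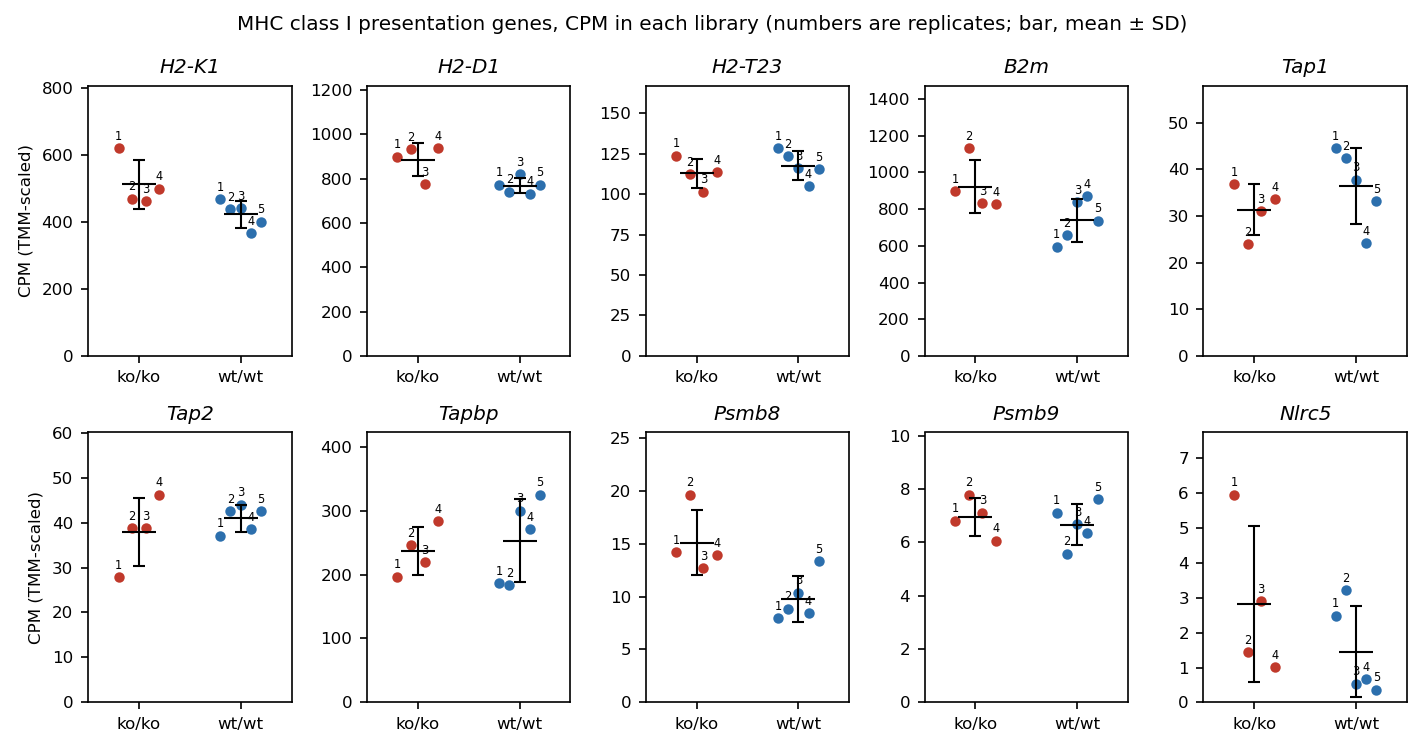
Level of each member in each library, in CPM on a linear axis of its own per gene, with ko/ko left of wt/wt; points are libraries numbered by replicate, and the bar and whiskers are the mean and SD (n = 4 and n = 5). The genotypes overlap in every panel, and in the Psmb8 panel 3 of 4 ko/ko points lie above all 5 wt/wt points.

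H2-K1 (ENSMUSG00000061232) encodes the K heavy chain and lies on mm10 chromosome 17, 33996017 to 34000333, minus strand. It had 621, 470.0, 462 and 500.1 CPM in ko/ko replicates 1 to 4, against 468, 439, 441, 366 and 401 CPM in wt/wt replicates 1 to 5. Replicate 1 was the high ko/ko library, and ko/ko replicate 3 lay below wt/wt replicate 1. The means were 513 ± 73.5 CPM in ko/ko and 423 ± 39.8 CPM in wt/wt (SD, n = 4 and 5). The log2 fold change was 0.28 (SE 0.14, 95% interval -0.04 to 0.60; edgeR adjusted p = 0.386), and without ko/ko replicate 1 it was 0.17.

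H2-D1 (ENSMUSG00000073411), the D heavy chain, lies on chromosome 17, 35262730 to 35267499, plus strand. It had 899, 933, 776 and 938 CPM in ko/ko, against 773, 742, 819, 733 and 773 CPM in wt/wt. Of the ko/ko libraries 3 lay above every wt/wt library, and replicate 3 lay among them. The log2 fold change was 0.21 (SE 0.13, 95% interval -0.08 to 0.49; edgeR adjusted p = 0.467). H2-D1 was even among animals: the coefficient of variation was 8.54% in ko/ko and 4.42% in wt/wt, while genes of like level had a median coefficient that was 18.9% in ko/ko (252 genes) and 21.6% in wt/wt.

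H2-T23 (ENSMUSG00000067212) encodes the heavy chain of Qa-1, a conserved class I molecule seen by the NKG2A receptor of NK cells. It lies on chromosome 17, 36029773 to 36032855, minus strand. It had 124, 112, 101 and 114 CPM in ko/ko, against 128, 123, 116, 105 and 116 CPM in wt/wt. All 9 values lay within a narrow span, and the log2 fold change was -0.06 (SE 0.12, 95% interval -0.33 to 0.21; edgeR adjusted p = 0.846). The interval holds no change beyond 0.33 in either direction on the log2 scale.

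B2m (ENSMUSG00000060802), the light chain shared by class I molecules, lies on chromosome 2, 122147686 to 122153083, plus strand. It had 896, 1132, 832 and 828 CPM in ko/ko, against 595, 658, 839.6, 869.9 and 736 CPM in wt/wt. The wt/wt replicates 3 and 4 reached the ko/ko values, and replicates 1 and 2 were low. B2m thus had a log2 fold change of 0.32 (SE 0.17, 95% interval -0.05 to 0.68; edgeR adjusted p = 0.393). Of the positive members, B2m, H2-K1 and H2-D1 held the X2 and Y pair in their promoter windows, Psmb8 and Psmb9 did not, and Nlrc5 had no window. This describes 3 genes, of which H2-K1 and H2-D1 have windows with long stretches alike, and it carries no test.

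The genes of peptide transport and loading had negative fold changes, none past the threshold. Tap1 (ENSMUSG00000037321, chromosome 17, 34187553 to 34197225, plus strand) encodes the first chain of the TAP transporter. It had 36.8, 23.9, 31.0 and 33.6 CPM in ko/ko, against 44.5, 42.4, 37.8, 24.2 and 33.2 CPM in wt/wt, with the 3 highest values in wt/wt. Its log2 fold change was -0.22 (SE 0.20, 95% interval -0.65 to 0.22; edgeR adjusted p = 0.627). Tap2 (ENSMUSG00000024339, chromosome 17, 34203527 to 34216321, plus strand) encodes the other chain. It had 27.8, 38.7, 38.8 and 46.2 CPM in ko/ko, against 37.1, 42.5, 44.0, 38.6 and 42.5 CPM in wt/wt. The lowest and the highest Tap2 values were both in ko/ko, and the log2 fold change was -0.11 (SE 0.16; edgeR adjusted p = 0.77). Without ko/ko replicate 1 the Tap2 value was 0.0094.

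Tapbp (ENSMUSG00000024308, chromosome 17, 33915899 to 33929288, plus strand) encodes tapasin. It had 197, 246, 219.7 and 283 CPM in ko/ko, against 187, 184, 299.9, 271 and 325 CPM in wt/wt. The wt/wt values split into replicates 1 and 2, below every ko/ko library, and replicates 3 to 5, of which 2 lay above every ko/ko library. Its fitted log2 fold change was -0.10 (SE 0.20, 95% interval -0.55 to 0.35; edgeR adjusted p = 0.847). The same wt/wt replicates 1 and 2 had the low fibroblast marker sums, 15065 and 13869 CPM, against 27665 to 32777 CPM in replicates 3 to 5; the part of this in the Tapbp values was not tested. Of distinct 50-base runs of Tapbp transcripts, 23.2% are shared with another gene, mostly the opposite-strand Gm19412, which had at most 5 counts in any library.

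Psmb8 (ENSMUSG00000024338, chromosome 17, 34197721 to 34201454, plus strand) had the smallest p of the members in edgeR and DESeq2, while in voom that of Nlrc5 was smaller. It encodes LMP7, the immunoproteasome subunit that takes the place of Psmb5. It had 14.2, 19.6, 12.7 and 13.9 CPM in ko/ko, against 7.93, 8.84, 10.4, 8.44 and 13.3 CPM in wt/wt. Only ko/ko replicate 3 lay below wt/wt replicate 5, and the other ko/ko libraries lay above all of wt/wt. The means were 15.1 ± 3.08 CPM in ko/ko and 9.78 ± 2.17 CPM in wt/wt (SD, n = 4 and 5). The log2 fold change was 0.63 (SE 0.21, 95% interval 0.17 to 1.09), with an unadjusted p of 0.0118 and an adjusted p of 0.215 in edgeR, 0.117 in DESeq2 and 0.0988 in voom. Over 19 alternative fits the log2 fold change of Psmb8 ran from 0.47 to 0.76 and its adjusted p from 0.0988 to 0.408.

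Psmb9 (ENSMUSG00000096727, chromosome 17, 34181988 to 34187764, minus strand) encodes LMP2, which takes the place of Psmb6. It had 6.82, 7.79, 7.12 and 6.07 CPM in ko/ko, against 7.12, 5.57, 6.69, 6.36 and 7.62 CPM in wt/wt. The log2 fold change was 0.06 (SE 0.20, 95% interval -0.37 to 0.49; edgeR adjusted p = 0.911), and the intervals of Psmb8 and Psmb9 overlap. Psmb9 varied little among animals, and its coefficient of variation was 10.3% in ko/ko and 11.6% in wt/wt. Genes of like level had median coefficients that were 26.9% in ko/ko and 28.0% in wt/wt. Its exons overlap those of Tap1 on the opposite strand over 212 bases, and reads there cannot be assigned without the strand setting, which the sources used here do not give.

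Nlrc5 (ENSMUSG00000074151, chromosome 8, 94434356 to 94527272, plus strand), the class I transactivator, was the least abundant and most variable member. It had 103, 32, 62 and 20 counts in ko/ko, against 49, 67, 11, 13 and 8 counts in wt/wt. These are 5.95, 1.45, 2.91 and 1.01 CPM in ko/ko, against 2.49, 3.22, 0.537, 0.661 and 0.367 CPM in wt/wt. Within each genotype the high libraries lay several times above the low ones, and wt/wt replicates 1 and 2 lay among the ko/ko values. The log2 fold change was 0.95 (SE 0.71, 95% interval -0.60 to 2.51; edgeR adjusted p = 0.544), and voom gave 1.51 (adjusted p = 0.0875, the lowest of 18 alternative fits, which ran to 0.923). Without ko/ko replicate 1 the edgeR value was 0.30, and without wt/wt replicate 2 it was 1.48. The highest library lay 16.2 times above the lowest, against 2.47 times for Psmb8 and 1.26 to 1.90 times for the other 8 members.

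**Figure D3:**
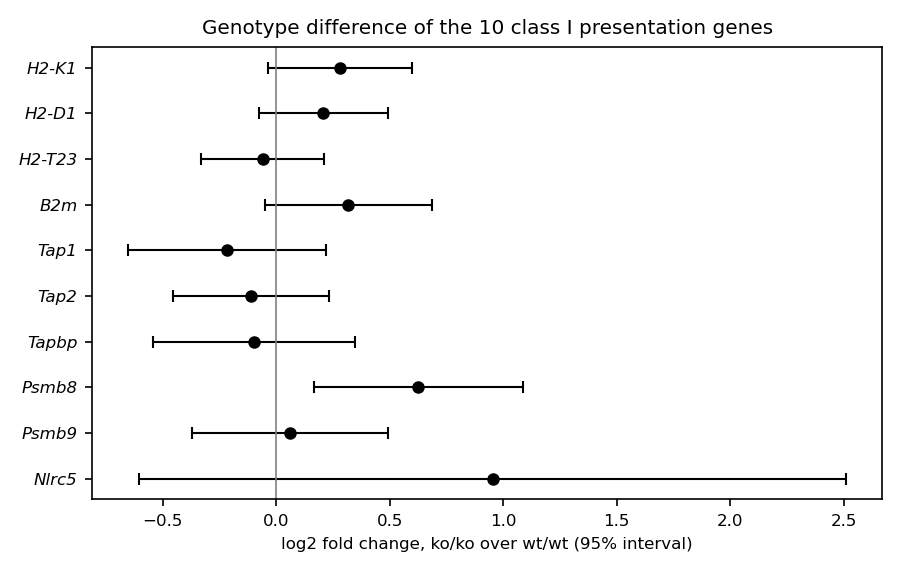
Log2 fold change of ko/ko over wt/wt for each member (x axis), with the 95% interval from edgeR as bars and 1 row per gene. The Psmb8 interval, 0.17 to 1.09, lies above 0 and the other 9 cross it; no member passed the adjusted threshold.

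Ratios of genes within a library do not depend on how libraries are scaled. They were formed from counts per kilobase, and 6 ratios were tested by an exact permutation test over the 9 libraries, two-sided, with p adjusted over the 6. The test treats the 9 libraries as independent, and whether they are was not tested. With all 9 libraries, the immunoproteasome subunits Psmb8 and Psmb10 passed, higher in ko/ko relative to the constitutive subunits they replace, while Psmb9 did not. With any 1 library left out, where the smallest possible p is larger, the Psmb8 and Psmb10 ratios did not pass. The genes of these ratios come from members and lists chosen with earlier results of these data known. The adjusted p does not allow for that choice. Psmb8 over Psmb5 was 0.244, 0.255, 0.162 and 0.173 in ko/ko, against 0.132, 0.128, 0.108, 0.0678 and 0.140 in wt/wt. All 4 ko/ko libraries lay above all 5 wt/wt libraries. The means were 0.208 ± 0.0477 in ko/ko and 0.115 ± 0.0289 in wt/wt (SD, n = 4 and 5), a difference of 0.87 in mean log2 ratio (exact permutation p = 0.00794, adjusted p = 0.0238).

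Psmb10 encodes MECL-1, which takes the place of Psmb7. Psmb10 over Psmb7 was 0.470, 0.611, 0.343 and 0.562 in ko/ko, against 0.334, 0.238, 0.314, 0.262 and 0.306 in wt/wt. Again every ko/ko library lay above every wt/wt library, with ko/ko replicate 3 close to wt/wt replicate 1. The means were 0.497 ± 0.118 in ko/ko and 0.291 ± 0.0393 in wt/wt (SD, n = 4 and 5), a difference of 0.75 in mean log2 ratio (exact permutation p = 0.00794, adjusted p = 0.0238). A p of 0.00794 is the smallest that 4 against 5 libraries allow. How often ratios of other gene pairs keep the genotypes apart was not tested. How unusual the separation is for either ratio therefore cannot be judged. With any 1 library left out, both ratios again had the smallest p possible, 0.0179 without a ko/ko library or 0.0286 without a wt/wt library, which came to 0.0536 or 0.0857 when adjusted over the 6.

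Neither the numerators nor the denominators of these ratios passed the gene-wise test. Psmb10 averaged 12.2 ± 3.06 CPM in ko/ko and 8.59 ± 1.20 CPM in wt/wt, or 0.51 in log2 fold change (SE 0.21; edgeR adjusted p = 0.293). Psmb5 averaged 23.4 ± 3.29 CPM in ko/ko and 28.3 ± 8.07 CPM in wt/wt, which is -0.28 on the log2 scale (SE 0.22; edgeR adjusted p = 0.564). Psmb7 averaged 49.6 ± 5.98 CPM in ko/ko and 59.6 ± 7.12 CPM in wt/wt, or -0.26 in log2 fold change (SE 0.14; edgeR adjusted p = 0.407). Of the 50-base runs of Psmb5, 54.1% also occur in another gene, 46.8% in Gm3375, so its count is uncertain.

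With the summed counts per kilobase of all 14 constitutive core genes as the denominator, a choice made after seeing the data, the difference in mean log2 ratio was 0.86 for Psmb8 (exact permutation p = 0.0159, adjusted over 3 p = 0.0238). It was 0.71 for Psmb10 (exact permutation p = 0.00794, adjusted p = 0.0238) and 0.29 for Psmb9 (exact permutation p = 0.135). Psmb9 over Psmb6 averaged 0.0195 ± 0.00473 in ko/ko and 0.0186 ± 0.00297 in wt/wt, a difference of 0.05 in mean log2 ratio (exact permutation p = 0.738, adjusted p = 0.817).

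The other 3 ratios did not differ beyond the spread between libraries. H2-D1 over H2-K1 averaged 1.77 ± 0.238 in ko/ko and 1.85 ± 0.153 in wt/wt (exact permutation test, p = 0.556 and, adjusted, 0.817). The sum of H2-K1 and H2-D1 over B2m averaged 0.511 ± 0.0756 in ko/ko and 0.547 ± 0.103 in wt/wt (exact permutation test, p = 0.587 and, adjusted, 0.817). Tap1 over Tap2 averaged 0.599 ± 0.217 in ko/ko and 0.617 ± 0.151 in wt/wt (exact permutation p = 0.817).

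**Figure D4:**
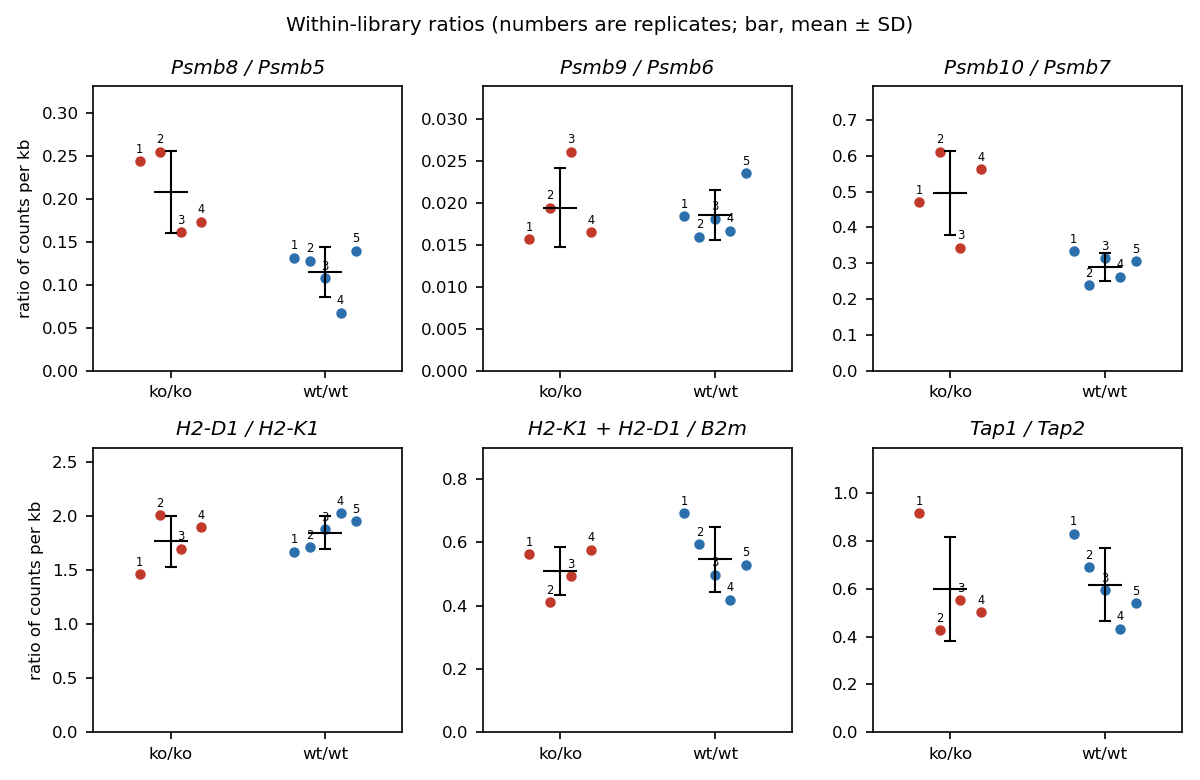
The 6 within-library ratios of counts per kilobase, each on its own linear axis, with ko/ko left of wt/wt; points are libraries numbered by replicate, and the bar and whiskers are the mean and SD (n = 4 and n = 5). The genotypes do not overlap for Psmb8 over Psmb5 and Psmb10 over Psmb7 and overlap for the other 4 ratios.

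Of 22 further class I and class I-like heavy chains 16 were tested, and 10 were positive, with a median log2 fold change of 0.02. Over all tested genes, 15.3% had an unadjusted p under 0.05 in edgeR (8.86% higher and 6.42% lower in ko/ko). These shares stand beside the edgeR counts of this list and those below. In this list edgeR called 0, and 1 gene had an unadjusted p under 0.05, higher in ko/ko. That gene was Cd1d1, which presents lipids to NKT cells, with 8.84 ± 3.79 CPM in ko/ko and 4.77 ± 2.12 CPM in wt/wt (log2 fold change 0.89, edgeR adjusted p = 0.317). H2-T24, H2-Q6 and H2-T22 followed, with log2 fold changes of 0.54, 0.24 and 0.17 and edgeR adjusted p of 0.349, 0.534 and 0.598. Reads of H2-Q6 and H2-T22 are uncertain, since 35.0% and 53.5% of their 50-base runs occur in other genes. For the members H2-K1, H2-D1 and H2-T23 the shared parts are 9.63%, 12.8% and 14.5%.

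Of 15 genes of peptide trimming, loading and chaperoning, all tested, edgeR called 0, and 6 were positive, with a median of -0.13. At an unadjusted p under 0.05 there was 1, lower in ko/ko, as were 6.42% of all tested genes. That gene was Lap3, an aminopeptidase, with 74.4 ± 16.5 CPM in ko/ko and 99.7 ± 13.1 CPM in wt/wt (log2 fold change -0.42, edgeR adjusted p = 0.29). Uggt1, a glucosyltransferase that checks glycoprotein folding, had a log2 fold change of 0.33 (edgeR adjusted p = 0.372). The values were -0.33 for Sppl2a, an intramembrane protease, and 0.29 for Npepps, a cytosolic aminopeptidase (edgeR adjusted p = 0.494 and 0.496).

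Among 6 proteasome activators and immunoproteasome partners, edgeR called 0. At an unadjusted p under 0.05 there were 2, Psmb10 and Psme4, both higher in ko/ko, as were 8.86% of all tested genes. Psme4, which encodes the activator PA200, had 90.6, 60.9, 56.4 and 48.4 CPM in ko/ko, against 45.9, 43.8, 42.7, 29.3 and 24.5 CPM in wt/wt. The genotypes did not overlap, and the log2 fold change was 0.78 (SE 0.23; adjusted p = 0.184 in edgeR, 0.0626 in DESeq2 and 0.0365 in voom). The interferon-inducible PA28 subunit Psme1 had a log2 fold change of -0.07, and Psme3 had -0.11 (edgeR adjusted p = 0.796 and 0.851).

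Of the 14 constitutive 20S core genes 13 had negative values and 1 a positive one, with a median of -0.27. EdgeR called 0. At an unadjusted p under 0.05 there were 2, both lower in ko/ko, as were 6.42% of all tested genes. These were Psma6, with 109 ± 18.7 CPM in ko/ko and 158 ± 35.5 CPM in wt/wt (log2 fold change -0.54, edgeR adjusted p = 0.238), and Psma7 (-0.37, edgeR adjusted p = 0.308). Voom called these and Psmb1 lower (adjusted p = 0.0206, 0.0359 and 0.0292), as it did 3.17% of all tested genes. The wt/wt libraries were uneven here too: the 14 genes summed to 1405 to 1672 CPM in ko/ko, against 1561 and 1605 CPM in wt/wt replicates 1 and 2 and 1905 to 2145 CPM in replicates 3 to 5.

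Of 28 transcription factors and interferon-signalling genes, all tested, edgeR called 0, and the median was -0.09. At an unadjusted p under 0.05, 2 were higher and 3 lower in ko/ko, beside 8.86% and 6.42% of all tested genes. Rfxap, a subunit of the RFX complex that binds the X1 box, had 6.76, 5.25, 4.36 and 2.93 CPM in ko/ko, against 2.44, 1.25, 2.15, 3.10 and 2.43 CPM in wt/wt (log2 fold change 1.08, SE 0.34; edgeR adjusted p = 0.199). Only ko/ko replicate 4 lay among the wt/wt values. Socs3, a feedback inhibitor of cytokine signalling, had -0.53, and the chains of the type I interferon receptor, Ifnar1 and Ifnar2, had -0.51 and -0.31 (edgeR adjusted p = 0.248, 0.269 and 0.307). Nfkb1 was the other gene with a higher value, 1.00 (edgeR adjusted p = 0.323). Of 9 interferon ligand genes 4 had any counts, and Ifnk, the keratinocyte interferon, was the 1 tested (log2 fold change -0.31, edgeR adjusted p = 0.824). Ifng had 1 count in all 9 libraries together.

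Class II presentation genes, the counterpart made by antigen-presenting leukocytes, had high sums in 3 ko/ko libraries. Their sum was 352, 403, 170.4 and 17.0 CPM in ko/ko replicates 1 to 4, against 72.9, 15.0, 18.0, 14.1 and 14.9 CPM in wt/wt replicates 1 to 5. Of 10 genes 8 were tested, all 8 had an unadjusted p under 0.05, higher in ko/ko, and the median log2 fold change was 3.19; edgeR called 0, DESeq2 5 and voom 3. H2-DMb1, H2-Ab1, H2-Aa and Cd74 had log2 fold changes of 3.36, 3.03, 3.66 and 4.06 (edgeR adjusted p = 0.136, 0.152, 0.156 and 0.164). Ko/ko replicate 4 lay within the wt/wt range.

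The summed level of 20 macrophage, dendritic and Langerhans cell markers was 132 to 605 CPM in ko/ko and 143 to 250 CPM in wt/wt, and 16 of 17 tested had a positive log2 fold change, with a median of 2.60; edgeR called 0 of them, DESeq2 7 and voom 3, all higher in ko/ko, and 13 had an unadjusted p under 0.05 in edgeR. Epcam, which keratinocytes also make, was the list's negative member; without it the sums were 499, 551, 259 and 67.0 CPM in ko/ko, against 151, 50.1, 109, 103 and 68.8 CPM in wt/wt. Ptprc, which encodes CD45, had 7.17, 1.58, 1.87 and 0.910 CPM in ko/ko, against 0.864, 0.769, 0.391, 0.0508 and 0.0918 CPM in wt/wt, and the genotypes did not overlap. For 11 T and NK cell markers the sum was 31.7 to 39.8 CPM in ko/ko and 19.8 to 37.3 CPM in wt/wt, most of it Thy1, which fibroblasts also make. Without Thy1 it was 6.22 to 11.01 CPM in ko/ko and 1.37 to 7.22 CPM in wt/wt. All 4 tested T and NK markers were positive, with a median log2 fold change of 0.92; edgeR and DESeq2 called 0, edgeR had 1 at an unadjusted p under 0.05, and voom called Cd3e (2.59, adjusted p = 0.0157). The 10 class I members summed to 2828, 2984, 2484 and 2763 CPM in ko/ko, against 2250, 2248, 2615, 2423 and 2448 CPM in wt/wt. Only ko/ko replicate 3 lay among the wt/wt values. In ko/ko replicate 4 the class II sum, the macrophage sum without Epcam and the T and NK sum without Thy1 (6.22 CPM) lay within the wt/wt range. Of single genes, Ptprc, at 0.910 CPM, and Cd3e, at 3.84 CPM, lay above every wt/wt library there. In this library Psmb8 over Psmb5 was 0.173 and Psmb10 over Psmb7 was 0.562. The part of leukocyte RNA in the member values and ratios was not tested.

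The summed level of 4 lymphatic endothelial markers was 151, 185, 152 and 216 CPM in ko/ko, against 374, 342, 258, 289.6 and 279 CPM in wt/wt, and the genotypes did not overlap. All 4 genes had negative values, with a median log2 fold change of -1.02; 3 had an unadjusted p under 0.05 in edgeR, which called 0, while DESeq2 and voom each called 1. That gene was Lyve1, a hyaluronan receptor, lower in ko/ko at -1.63 (SE 0.29; adjusted p = 0.0951 in edgeR, 3.8e-05 in DESeq2 and 0.0127 in voom). The part of these cells in the proteasome ratios was not tested.

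**Figure D5:**
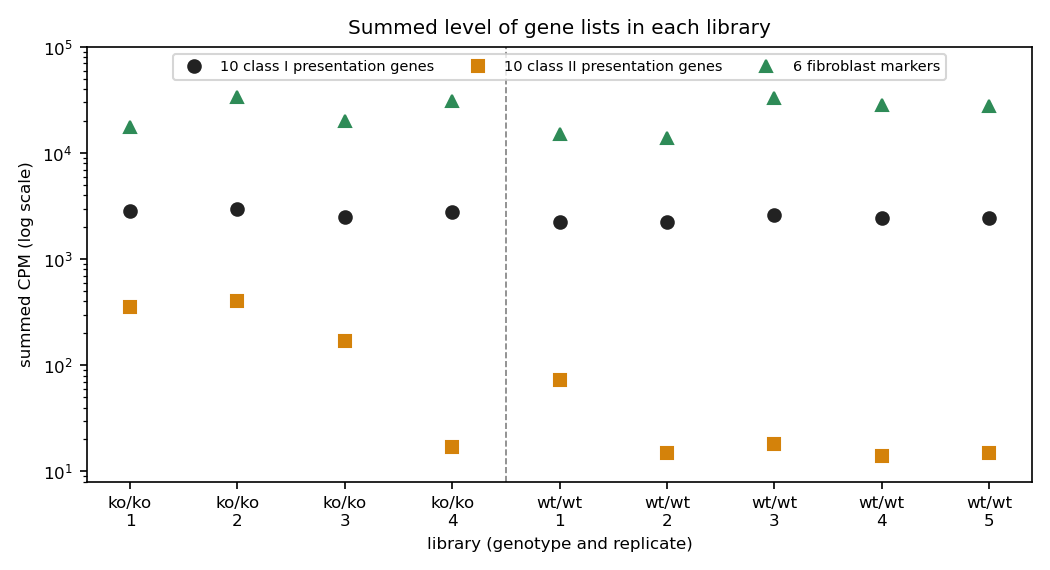
Summed CPM on a log axis in each library, ko/ko replicates left of the dashed line and wt/wt replicates right of it, for the 10 class I members, 10 class II genes and 6 fibroblast markers. The class I sum runs from 2248 to 2984 CPM, with ko/ko replicates 1, 2 and 4 above every wt/wt library, a difference small on this axis. The class II sum runs from 14.1 to 403 CPM and is high in ko/ko replicates 1 to 3.

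The pattern of the members across libraries was summarised as the mean of their standardised log2 CPM. It was 0.40, 0.45, -0.13 and 0.30 in ko/ko, against -0.12, -0.30, 0.09, -0.70 and 0.01 in wt/wt. Over the 9 libraries, the 5 other tested genes nearest to this mean pattern by root mean square difference were Gbp2 at 0.618, Gbp2b at 0.622, Gm39325 at 0.634, Irgm1 at 0.637 and Jund at 0.637, beside a median of 1.01 over 18425 genes. The members, each part of the mean, lay at 0.647 for H2-D1 to 1.07 for Tap2. Tap1, Tapbp and Nlrc5 lay near that median, at 0.989, 0.982 and 0.942. The mean is therefore not a pattern that all members shared. Gbp2 and Gbp2b are interferon-inducible guanylate-binding proteins and Irgm1 is an interferon-inducible GTPase. Gbp2 averaged 49.1 ± 9.14 CPM in ko/ko and 35.4 ± 9.94 CPM in wt/wt (log2 fold change 0.47, edgeR adjusted p = 0.34), and Irgm1 averaged 91.3 ± 17.3 CPM in ko/ko and 73.1 ± 10.5 CPM in wt/wt (0.32, edgeR adjusted p = 0.387). Gm39325, Jund and Gbp2b had larger log2 fold changes, 1.04, 0.73 and 0.71 (edgeR adjusted p = 0.339, 0.198 and 0.247).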

How the data were processed

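RNA of CD45-, CD49f+ skin cells from 4 ko/ko and 5 wt/wt samples was amplified over 13 cycles by a SMART method, and 3 ng of cDNA was cut and tagged by a transposase, per the labels' protocols. The deposited table holds raw counts per gene made by the authors, with exon lengths deposited by the authors in another column. GSNAP, featureCounts 1.6.2 and mm10 were used, per the submitters' processing notes, and Ensembl release 87 is in the table's name. For strand, multi-mapped reads and duplicates, the settings are not given in these sources. The labels name no molecular identifiers, so values per count cover counting error only.

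Of 49763 rows, 92 spike-in rows were left out, and 49326 of the 49671 gene rows had a symbol through GENCODE. Genotype came from the labels; replicates were numbered in accession order, which pairs no samples. The members and lists were chosen with earlier results of these data known, so no p adjusted over a list of genes is given. The p adjusted over ratios does not allow for that choice. All 18435 genes kept by filterByExpr were fitted with edgeR 4.0.16 (R 4.3.3; TMM, robust glmQLFit, two-sided quasi-likelihood test, Benjamini-Hochberg, threshold 0.05), and the fit was tested on simulated data. Standard errors (SE) were derived from each fold change and its F statistic. Alternatives were other scaling factors and filters, robust=FALSE, a loess correction (span 0.3) on exon length, DESeq2 1.42.0, limma 3.58.1 voom with sample quality weights, and each library left out. The text names all members, Flg, the 4 genes of each list with the smallest p or fewer, and the 5 genes nearest the members' pattern. Itga6, Nfkb1, Ifng, Ptprc, Cd3e, Epcam, Thy1 and Lyve1 were named, and the sums without Epcam or Thy1 chosen, after the values were seen. In every pair of libraries, counts differed beyond sampling noise (chi-square over its degrees of freedom 23.9 or more). This value was 35.9 between wt/wt replicates 1 and 2 and 23.9 to 30.8 among wt/wt replicates 3 to 5. Between the former and the latter libraries it was 107 to 150. Promoter windows are from RefSeq.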

Additional observations from a re-analysis of the deposited data

How the results depend on the processing

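No paired analysis was possible because the labels carry no replicate numbers. Of 189 alternative fits of single members, 184 kept direction and call and 5 changed sign, and no member was called in any. With library totals in place of TMM, H2-T23 was 0.0452 and Tapbp 0.0184; that setting moved the median of all genes to 0.08, against -0.03, and relative to the median H2-T23 was -0.04 and Tapbp -0.06. With 1 library left out, Tap2 ran from -0.22 to 0.0094 (without ko/ko replicate 1), Tapbp from -0.20 to 0.0069 (without wt/wt replicate 5) and Psmb9 from -0.0016 (without ko/ko replicate 2) to 0.12.

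Over all genes, the calls higher in ko/ko numbered 4 with library totals, 26 with no filter, 507 in DESeq2, 1217 in voom, 7 without ko/ko replicates 1 and 4 and wt/wt replicate 1, and 0 to 12 with 1 library left out (12 without ko/ko replicate 4). Calls lower in ko/ko numbered 2 with no filter, 174 in DESeq2 and 585 in voom, against 0 in edgeR. Over all genes, the share called was 9.77% in voom and 3.07% in DESeq2. Of the pathway lists, voom called 1 of 6 proteasome partners and 3 of 14 core proteasome genes. It also called 3 of 28 signalling genes and 3 of 8 tested class II genes. DESeq2 called 5 of 10 class II genes, and edgeR called 0 in these lists. Of the marker lists, DESeq2 called 7 of 19 and voom 3 of 17 tested macrophage markers. In the same order they called 1 and 3 of 8 basal keratinocyte markers and 1 and 2 of 4 suprabasal markers. For T and NK markers DESeq2 called 0 of 11 and voom 1 of 4 tested. For blood endothelial markers the calls were 1 and 0 of 6. They were 1 each of 4 lymphatic markers and 0 and 1 of 4 melanocyte markers.

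With 1 library left out, the difference in mean log2 ratio was 0.69 to 0.99 for Psmb8 over Psmb5 and 0.64 to 0.92 for Psmb10 over Psmb7. It was -0.10 to 0.14 for Psmb9 over Psmb6, -0.14 to 0.0158 for H2-D1 over H2-K1, -0.18 to 0.0099 for the heavy chains over B2m and -0.29 to 0.0724 for Tap1 over Tap2. Without ko/ko replicates 1 and 4 and wt/wt replicate 1, libraries rich in reads of predicted genes around Gm10800 and chosen after seeing the data, Psmb8 over Psmb5 was 0.92 and Psmb10 over Psmb7 0.72, with an exact permutation test's adjusted p of 0.4 for both; 2 against 4 libraries allow no p under 0.0667, so this tests nothing at the threshold. Why values moved was not tested. Depth limits Nlrc5 most, with 8 to 103 counts per library; it did not pass the stricter filter, which therefore gave it no value.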
